A study of Komagataella phaffii GS115 with 12 samples.

Results

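The strain GS115/DS56 of Komagataella phaffii, the methylotrophic yeast also called Pichia pastoris, was compared with the empty-vector strain GS115/3.5K after 72 h of methanol induction. The titles write these strains GS115/DS56_HP and GS115/3.5K_LP, and the descriptions omit the endings, as is done here. All 6 arrays titled for these strains were taken, of 12 arrays in the series, and all 2390 rows of the table were read, the 160 bright rows with a 12-array mean of 8 or above (log2) first. DS56 carried the recombinant methionine adenosyltransferase gene DS56, and the control carried the empty vector pPIC3.5K. Both strains had grown in BSM medium and had been given L-methionine at 24 h of induction, and each had 3 cultures with 1 array each. The series also holds G12-CBS, with the same recombinant gene and the weak promoter G12 put in to lower CYS4, as 3 arrays at 72 h with L-methionine and 3 at 24 h without it. No source used here gives the promoter or the copy number of the recombinant gene.

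Methionine adenosyltransferase joins methionine to the adenosyl group of ATP and makes S-adenosylmethionine, the methyl donor of most cellular methylation. Methyltransferases turn it into S-adenosylhomocysteine, which is hydrolysed to homocysteine and then either remethylated to methionine or drawn off by cystathionine beta-synthase, the product of CYS4. In methanol medium this yeast oxidises methanol to formaldehyde and fixes part of it in the peroxisome into triose phosphates, which enter the reactions of glycolysis and gluconeogenesis.

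Rows are labelled with systematic gene names of Saccharomyces cerevisiae, not with K. phaffii names. The gene names and roles below are those of the S. cerevisiae genes with these systematic names. They come from general knowledge of S. cerevisiae nomenclature: neither the deposited table nor the K. phaffii gene table used here pairs them with the rows. A row is therefore not shown to measure the K. phaffii counterpart, and how its probes match K. phaffii transcripts or the recombinant gene is not known here. No row stands for CYS4 in the table, so it was not analysed here.

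The scale itself limits what a difference means. The 179 highest values were the same on every one of the 12 arrays, within 1e-06 on the log2 scale, down to a level of 7.81, and each array had 157 values of 8 or above. A bright level is thus a place in an order shared by all arrays, and when one row moves up in that order others must move down. Neighbouring places were a median of 0.093 apart at levels of 12 or above and 0.0221 apart between 8 and 10, so equal values on 3 arrays are common among the brightest rows and an SD of 0 there is not a measure of culture-to-culture spread. The DS56 arrays lay closest to unfed G12-CBS at 24 h, with 6 rows at least 2-fold apart between the group means, whereas 39 rows were so far apart between DS56 and the control. The control lay closest to G12-CBS at 72 h, with a median absolute difference of 0.152 per row, against 0.193 between DS56 and the control. How much of the difference between DS56 and the control goes with whatever brings these groups together was not tested. The G12-CBS levels are therefore given beside many of the main rows, though not all.

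The YDR502C row, which has the systematic name of SAM2, a methionine adenosyltransferase of S. cerevisiae, stood at 15.76 on all 3 DS56 arrays, against 10.17, 10.48 and 10.76 on the control arrays. It was the brightest row of every DS56 array, and ranked between 55 and 69 on the control arrays. The difference was 5.29 ± 0.13 on the log2 scale (SE, limma's adjusted p = 1.01e-16), or 39.0-fold. As 15.76 is the ceiling of the scale, this fold does not measure how much RNA the recombinant strain held. The SE and adjusted p, here and below, pool the spread of all 12 arrays, in this row many of them at the ceiling. They do not measure the spread of the control, whose SD was 0.29 in this row. With the spread from the 6 arrays alone limma's adjusted p was 2.87e-09. G12-CBS, which has the same recombinant gene, averaged 15.76 at 72 h and 15.70 at 24 h, so the row set all 3 groups with the gene apart from the control.

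The YLR180W row (SAM1, the other methionine adenosyltransferase of S. cerevisiae) had 8.74, 8.94 and 8.57 in DS56, against 7.50, 6.97 and 6.70 in the control. No DS56 array overlapped a control array, and the row rose by 1.69 ± 0.16 (log2, SE), or 3.23-fold, with limma's adjusted p = 4.21e-07. It averaged 8.04 ± 0.06 in G12-CBS at 72 h and 8.72 ± 0.02 at 24 h (SD, n = 3 each). The control values 6.97 and 6.70 lay not far above 6.64, the median of all values. The size of the SAM1 rise therefore rests partly on levels not shown to be above background. Whether the recombinant transcript binds the probes of either row was not tested.

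**Figure D1:**
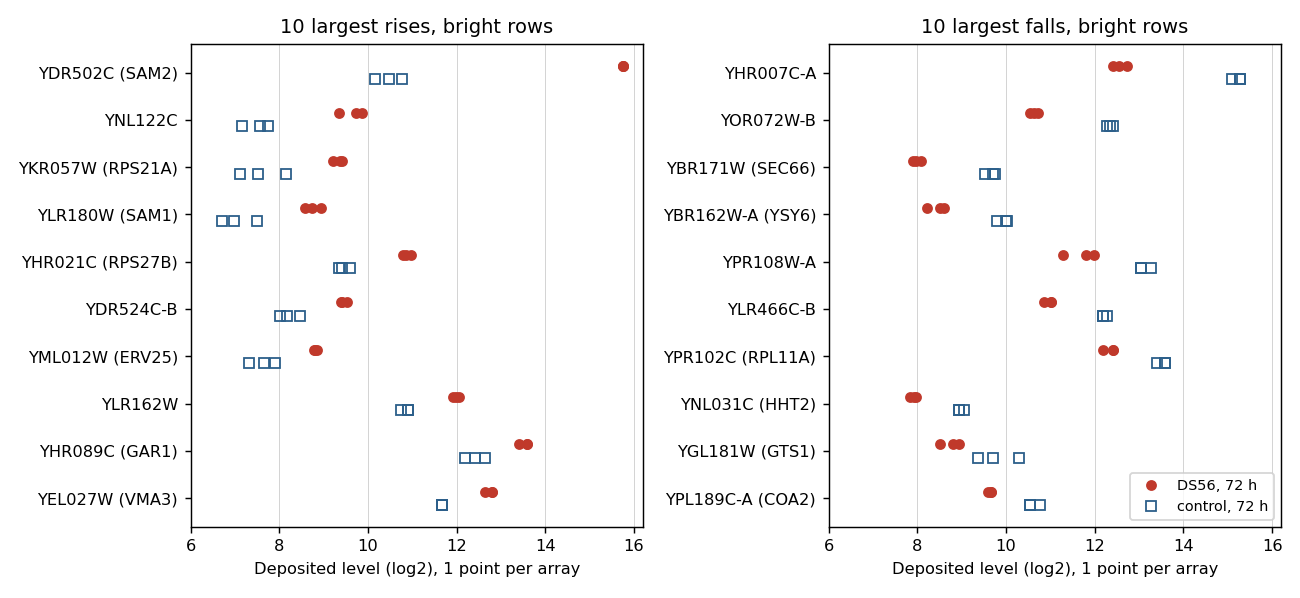
Deposited level (log2, horizontal axis) of the 10 bright rows with the largest rises (left) and the 10 with the largest falls (right), 1 point per array, filled circles for the 3 DS56 arrays and open squares for the 3 control arrays at 72 h. In all 20 rows the DS56 and control arrays are apart, as the rule for choosing them required, and the 3 DS56 points of YDR502C (SAM2) lie on top of each other at 15.76.

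Of all 2390 rows 433 passed an adjusted p of 0.05 in limma (18.1%), 288 of them higher in DS56 (12.1%) and 145 lower (6.07%). At least a 2-fold change was reached by 24 rows that rose and 15 that fell, together 1.63% of rows. Among the 160 bright rows 88 passed (55%), 43 higher (26.9%) and 45 lower (28.1%), while 345 of 2230 dimmer rows passed (15.5%), 245 higher and 100 lower. Most of the 433 calls lay in rows with a 12-array mean under 7. Such rows were 83% of the table and are not shown to be above background. They gave 54 rises and 33 falls among 586 rows under 6.5, and 148 rises and 46 falls among 1398 rows from 6.5 to 7. The 3 DS56 arrays lay wholly above or wholly below the 3 control arrays in 33.8% of all rows and in 66.9% of bright rows. The 12-array mean that defines bright rows includes the DS56 arrays, so some rows are bright only through the groups where they are high. The shares of bright rows called are not free of this choice. Without DS56 replicate 1, 2 or 3 the 433 calls dropped to 253, 239 or 246. In simulated data 13.3% of the calls of this fit were false. Those data did not keep the shared order of levels, so 13.3% is not a measure of the false share of the 433 calls. The near-even split of the bright rows cannot be read as a balance of transcripts. In the shared order of levels a row that moves up displaces others downward, which ties bright rises to falls. This does not fix the number of rows called each way, which with arrays centred was 36 higher and 49 lower among bright rows. With each array centred on its median, rises made up 53.5% of all calls, against 66.5% on the deposited scale.

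**Figure D2:**
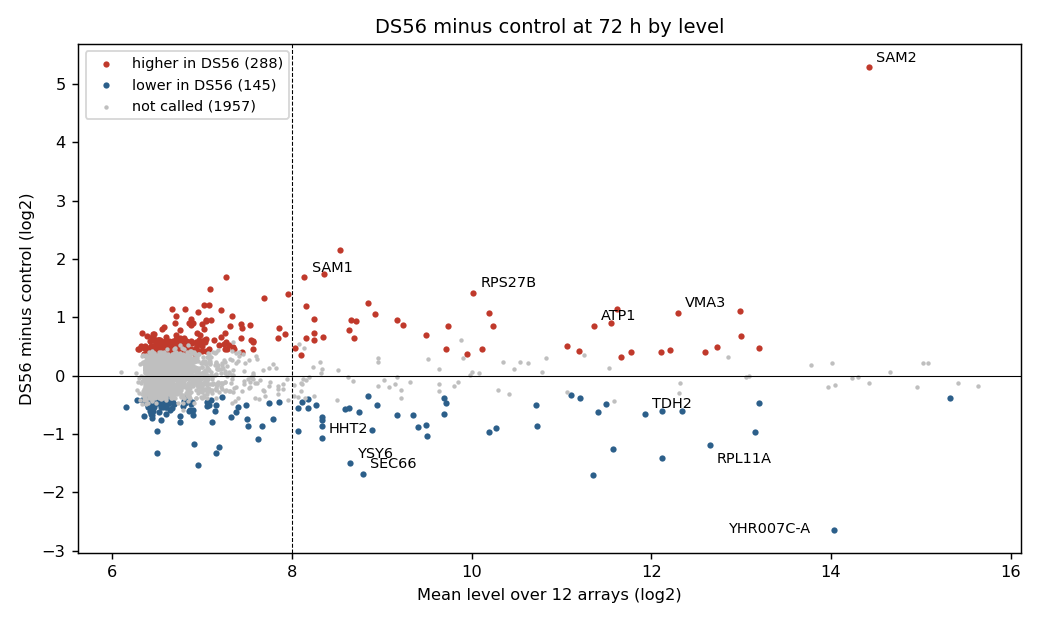
Difference between DS56 and the control at 72 h (log2, vertical axis) against the mean level over all 12 arrays (log2, horizontal axis), 1 point per row. Red marks the 288 rows higher in DS56, blue the 145 lower and grey the 1957 not called, and the dashed line is the level of 8 that separates bright from dimmer rows. SAM2 lies alone at 5.29, and YHR007C-A is the lowest point at -2.64.

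After SAM2, the bright row with the largest rise was YNL122C, which has the systematic name of an S. cerevisiae mitochondrial ribosomal protein gene. It had 9.74, 9.34 and 9.87 in DS56, against 7.15, 7.57 and 7.75 in the control, a rise of 2.16 ± 0.19 (log2, SE, limma's adjusted p = 1.32e-07). The groups did not overlap, and the G12-CBS mean was 7.20 at 72 h, near the control, and 9.80 at 24 h, near DS56. Its control mean was 7.49, so the row counts as bright only through the groups where it was high. The same holds for RPS21A, ERV25 and SAM1, with control means of 7.60, 7.63 and 7.06. Among the bright falls, SEC66 and HHT2 had DS56 means under 8, at 7.98 and 7.91.

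The remaining large bright rises outside the ribosomal lists were of varied kinds. YEL027W (VMA3, the proteolipid subunit of the vacuolar proton pump) had 12.80, 12.80 and 12.65 in DS56, against 11.67 on all 3 control arrays, a rise of 1.08 ± 0.11 (log2, SE, limma's adjusted p = 1.46e-06). YHR089C (GAR1, a protein of the small nucleolar particles that pseudouridylate ribosomal RNA) had 13.58, 13.41 and 13.58 in DS56, against 12.65, 12.19 and 12.42 in the control. YML012W (ERV25, a p24 protein of vesicles between endoplasmic reticulum and Golgi) had 8.81, 8.84 and 8.79 in DS56, against 7.32, 7.66 and 7.91 in the control. The arrays of the strains were apart in each, with rises of 1.11 for GAR1 and 1.19 for ERV25 (log2). In G12-CBS at 72 h GAR1 averaged 12.34, ERV25 7.57 and VMA3 11.32, all nearer the control than DS56. At 24 h their G12-CBS means were 13.67, 8.61 and 13.47, all nearer DS56 than the control. The rows YDR524C-B and YLR162W, for which no role is given here, rose by 1.24 and 1.14 (log2).

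The largest fall of the table was in YHR007C-A, for which no role is given here. It had 12.55, 12.42 and 12.73 in DS56, against 15.27, 15.10 and 15.27 in the control, a difference of -2.64 ± 0.13 (log2, SE, limma's adjusted p = 7.83e-12), or 6.25-fold lower. G12-CBS lay between the strains at both times, at 14.27 ± 0.05 at 72 h and 14.08 ± 0.16 at 24 h (SD, n = 3 each). It is one of 20 bright rows with a suffixed systematic name, of which 3 rose, 9 fell and 8 did not pass, with a median of -0.19 (log2), against -0.05 over all bright rows. Their 60% called stands beside 54.3% of the bright rows without a suffix. YOR072W-B, YPR108W-A and YLR466C-B, also suffixed and with no role given here, fell by 1.71, 1.42 and 1.26 on the log2 scale.

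Among the named bright falls was YBR171W (SEC66, a subunit of the complex for post-translational translocation into the endoplasmic reticulum), with 7.97, 8.07 and 7.91 in DS56, against 9.74, 9.71 and 9.53 in the control. YBR162W-A (YSY6, a small protein whose expression in Escherichia coli relieves a secretion defect) had 8.50, 8.22 and 8.60 in DS56, against 10.03, 9.80 and 10 in the control. SEC66 fell by 1.68 ± 0.12 and YSY6 by 1.50 ± 0.13 on the log2 scale (SE, limma's adjusted p = 7.32e-09 and 1.43e-07), and neither overlapped. YSY6 was also low in G12-CBS at both times, at 8.09 ± 0.16 at 72 h and 8.14 ± 0.06 at 24 h (SD, n = 3 each), and its G12-CBS difference from the same control arrays at 72 h was -1.85 (log2, limma's adjusted p = 4.40e-09). SEC66 averaged 8.88 in G12-CBS at 72 h and 8.62 at 24 h.

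YGL181W (GTS1, linked to the timing of metabolic oscillations) had 8.94, 8.52 and 8.81 in DS56, against 10.29, 9.37 and 9.71 in the control, and fell by 1.04 ± 0.22 on the log2 scale (SE, limma's adjusted p = 0.0031). YPL189C-A (COA2, an assembly factor of cytochrome c oxidase) had 9.67, 9.67 and 9.59 in DS56, against 10.55, 10.76 and 10.55 in the control, and fell by 0.97. In both, every DS56 array lay below every control array.

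Among the dimmer rows the largest rises were in YBR111C (YSA1, an ADP-ribose pyrophosphatase), YGL135W (RPL1B), YNL044W (YIP3, a vesicle-transport protein) and YLR153C (ACS2, the acetyl-CoA synthetase of nucleus and cytosol). YSA1 had 8.22, 8.36 and 8.09 in DS56, against 6.51, 6.19 and 6.89 in the control, and rose by 1.69 ± 0.16 (log2, SE, limma's adjusted p = 5.40e-07). ACS2 had 8.41, 8.53 and 8.45 in DS56, against 6.98, 7.42 and 7.01 in the control, and rose by 1.33 (log2). Neither row overlapped between the strains, and the control levels of YSA1 lay around 6.64, the median of all values, where no row could be called above background. YIP3 rose by 1.40 (log2). In G12-CBS YSA1 averaged 6.43 at 72 h and 7.91 at 24 h, and ACS2 6.72 and 8.43.

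The largest falls of the dimmer rows were in YOL080C (REX4, a putative exonuclease of ribosome assembly), YCL028W (RNQ1, a prion protein), YFR012W-A and YBR063C. REX4 had 6.35, 6.53 and 6.25 in DS56, against 7.85, 7.91 and 7.97 in the control, and fell by 1.53 ± 0.13 on the log2 scale (SE, limma's adjusted p = 5.78e-08). RNQ1 had 6.86, 6.82 and 7.16 in DS56, against 8.83, 8.49 and 7.49 in the control, and fell by 1.32. In REX4 all DS56 values lay under the median of all values, so the size of its fall, and its place among the falls, rest on a level not shown to be above background, and the same holds for YFR012W-A. The DS56 mean of YBR063C, 6.57, also lay under that median. The control arrays of RNQ1 spread widely, the third lying nearest the DS56 arrays.

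The rows were next read by function, in 12 lists of S. cerevisiae genes, of whose 358 systematic names 247 occurred in the table. Counts below stand beside the 18.1% of all rows called and the median of 0.04 (log2) over all rows, and for lists rich in bright rows beside the 55% of bright rows called and their median of -0.05. Many dimmer rows of the lists had a group mean under 6.64, the median of all values. The sizes of their differences then rest on levels not shown to be above background.

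**Figure D3:**
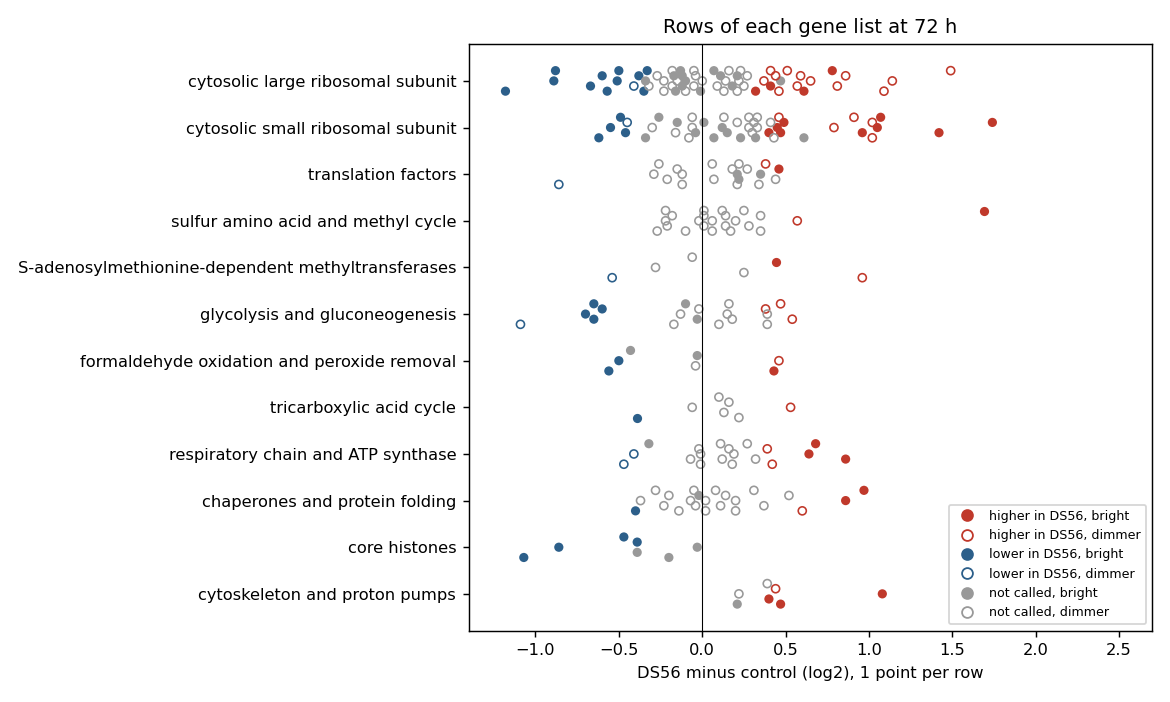
Difference between DS56 and the control at 72 h (log2, horizontal axis) of each row of the 12 gene lists, 1 point per row, filled for bright rows and open for dimmer ones. Red points rose, blue points fell and grey points did not pass, points are spread vertically only to be seen apart, and SAM2 at 5.29 is off scale and not drawn. All 7 core histone points lie below 0.

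In the sulfur amino acid and methyl cycle list, 24 of 41 genes had a row, of which SAM2, SAM1 and YLR058C (SHM2, the cytosolic serine hydroxymethyltransferase that feeds one-carbon units) rose, none fell and 21 did not pass. The list's median was 0.09 (log2), and without SAM2 and SAM1 the highest row was SHM2 at 0.57. SHM2 had 6.94, 7.05 and 6.69 in DS56, against 6.77, 5.96 and 6.25 in the control, so the groups overlapped, and limma's adjusted p of 0.0234 reached 0.075 when the spread was taken from the 6 arrays alone and 0.0587 to 0.125 without DS56 replicate 1 or 2 or control replicate 2 or 3. Of 6 rows of S-adenosylmethionine-dependent methyltransferases, YDR410C (STE14, which methylates prenylated proteins) rose by 0.96 ± 0.14 and YDL014W (NOP1, the nucleolar fibrillarin that methylates ribosomal RNA) by 0.44 ± 0.11 (log2, SE). STE14 had 7.53, 7.30 and 7.60 in DS56, against 6.42, 6.42 and 6.73 in the control, with no overlap. Its control mean of 6.52 lay under the median of all values of 6.64, so the size of this rise rests on a level not shown to be above background. In G12-CBS STE14 averaged 6.60 at 72 h, near the control, and 7.54 at 24 h. NOP1 averaged 11.54 and 12.75 there, and its G12-CBS difference from the control at 72 h was -0.53 (log2, limma's adjusted p = 0.0051). YBR034C (HMT1, an arginine methyltransferase) fell by 0.54 (log2), but limma's adjusted p of 0.0326 rose to between 0.0519 and 0.139 without DS56 replicate 1, 2 or 3 or without control replicate 2 or 3.

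The ribosomal lists moved in both directions. Of 45 small-subunit rows 14 rose and 5 fell, with a median of 0.28 (log2), and of 63 large-subunit rows 17 rose and 12 fell, with a median of 0 that became -0.05 when arrays were centred. The bright rows alone gave 9 rises and 4 falls among 24 small-subunit rows, and 4 rises and 11 falls among 28 large-subunit rows, shares called that stand close to the 55% of all bright rows. Without DS56 replicate 1, 2 or 3 the large-subunit rises were 9, 6 or 10 and the falls 6, 7 or 6, and without control replicate 3 the falls were 7. The small-subunit falls were 3 without DS56 replicate 1 or 3 or control replicate 3.

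YKR057W (RPS21A) had the largest small-subunit rise, with 9.37, 9.42 and 9.22 in DS56, against 7.12, 8.16 and 7.52 in the control, a difference of 1.74 ± 0.20 (log2, SE, limma's adjusted p = 4.05e-06). YHR021C (RPS27B) had 10.79, 10.96 and 10.85 in DS56, against 9.42, 9.59 and 9.34 in the control, and rose by 1.42 (log2). YBR048W (RPS11B) had 10.76 on all DS56 arrays, against 9.71, 9.77 and 9.59 in the control, and rose by 1.07 (log2). None of these groups overlapped. In G12-CBS RPS27B was below the control at 72 h, at 8.67 ± 0.45, and above DS56 at 24 h, at 11.11 ± 0.05 (SD, n = 3 each). RPS21A averaged 7.30 in G12-CBS at 72 h and 9.19 at 24 h, and RPS11B 9.74 and 10.58. The largest small-subunit falls were smaller: YGR118W (RPS23A) by 0.62, YGL189C (RPS26A) by 0.55 and YPR132W (RPS23B) by 0.49 on the log2 scale.

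YPR102C (RPL11A) had the largest large-subunit fall, with 12.42, 12.19 and 12.42 in DS56, against 13.58, 13.41 and 13.58 in the control, a difference of -1.18 ± 0.12 (log2, SE, limma's adjusted p = 7.70e-07). Its arrays did not overlap, and it averaged 13.83 in G12-CBS at 72 h and 10.90 at 24 h. YGL147C (RPL9A) fell by 0.89 and YJL189W (RPL39) by 0.88 on the log2 scale. RPL39 differed from the pattern of RPL11A in G12-CBS: it averaged 9.85 ± 0.04 in DS56, 7.49 ± 0.31 in G12-CBS at 72 h and 10.73 ± 0.20 in the control (SD, n = 3 each). Its G12-CBS mean at 24 h was 9.53. The large-subunit rows named for their rises were all dimmer, YGL135W (RPL1B) at 1.49, YDL130W (RPP1B, a stalk protein) at 1.14 and YDR500C (RPL37B) at 1.09 (log2). RPL1B had 7.81, 8.14 and 7.65 in DS56, against 6.34, 6.60 and 6.18 in the control. The control means of all 3 rows lay under the median of all values of 6.64, so the sizes of these rises and their order rest on levels not shown to be above background.

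Many of these genes are duplicated in S. cerevisiae, and 47 duplicate pairs had both rows in the table. In 33 pairs the rows differed in the same direction, and in 10 pairs both rows were called, 9 of them in the same direction. The exception was RPL37A at -0.33 and RPL37B at 1.09 (log2). The RPL37A call was only just under the threshold (limma's adjusted p = 0.0469). RPL37B had a control mean of 6.43, under the median of all values of 6.64. Where both rows were bright, 13 of 16 pairs had the same direction. Some pairs differed widely, such as RPS29A at 1.02 and RPS29B at -0.30, or RPS27A at 0.31 and RPS27B at 1.42 (log2). These pairs were picked after their values were seen, as were TEF1 and TEF2 below. How far the 2 rows of a pair read the same K. phaffii transcript is not known here.

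**Figure D4:**
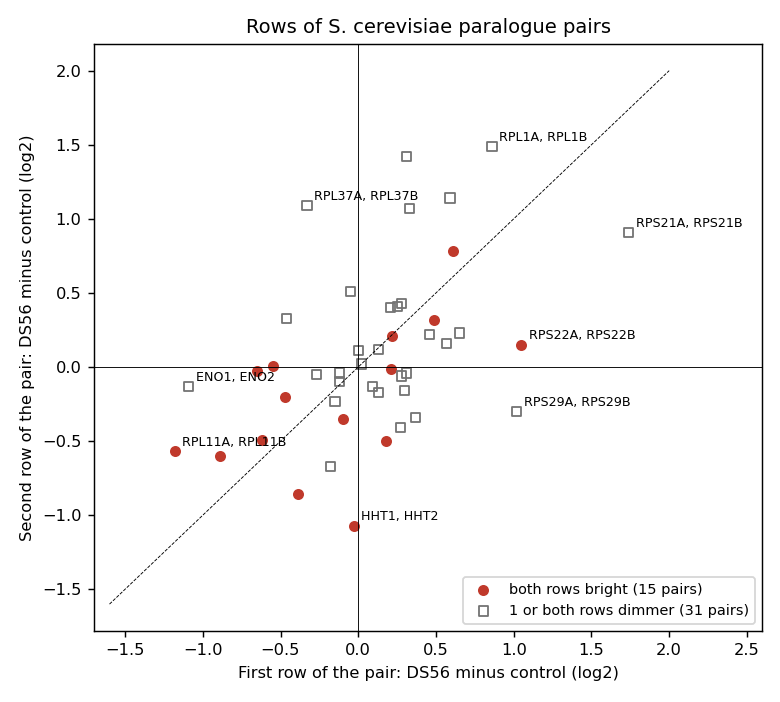
Difference between DS56 and the control at 72 h (log2) of the first row (horizontal axis) and second row (vertical axis) of 46 S. cerevisiae duplicate pairs, red circles where both rows are bright and grey squares where not, with the dashed line of equal differences. The pair SAM1 and SAM2 is off scale and not drawn, and RPL37A and RPL37B lie on opposite sides of 0.

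Of 20 rows for translation factors, YAL003W (EFB1, an exchange factor of elongation factor 1) fell, with 7.10, 7.63 and 7.16 in DS56, against 7.99, 8.35 and 8.13 in the control. Its difference was -0.86 ± 0.15 (log2, SE, limma's adjusted p = 0.000414), with no overlap. YLR249W (YEF3) and YNL014W (HEF3), fungal elongation factors 3, rose by 0.46 and 0.38 (log2), and neither rise passed once arrays were centred, with limma's adjusted p of 0.0502 and 0.073. Without any 1 DS56 array or without control replicate 3 neither passed, nor did YEF3 without control replicate 1 or HEF3 without control replicate 2. The other 17 rows did not pass, the bright TEF1 and TEF2 at 0.22 and 0.21 (log2) among them.

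All 7 core histone rows were negative and 4 fell, with a median of -0.39 (log2). All 7 are bright rows, and the 57.1% called stands close to the 55% of bright rows called. Core histones are the proteins around which DNA is wound. YNL031C (HHT2, histone H3) had 7.83, 7.92 and 7.97 in DS56, against 8.94, 8.94 and 9.05 in the control, and fell by 1.07 ± 0.12 on the log2 scale (SE, limma's adjusted p = 2.03e-06). The row of its duplicate YBR010W (HHT1) did not pass, at 13.05 ± 0.17 in DS56 and 13.08 ± 0.03 in the control (SD, n = 3 each). YBL003C (HTA2, histone H2A) had 10.40, 10.48 and 10.48 in DS56, against 11.28, 11.34 and 11.34 in the control, and fell by 0.86 ± 0.12 on the log2 scale (SE, limma's adjusted p = 2.94e-05). HHT2 averaged 8.53 in G12-CBS at 72 h and 7.91 at 24 h, and HTA2 10.77 and 10.35. YBR009C (HHF1, histone H4) fell by 0.47 and YDR225W (HTA1, also H2A) by 0.39 on the log2 scale. HTA1 lies outside the rule for named rows and was chosen after its values were seen. Its call (limma's adjusted p = 0.0258) was lost with the spread from the 6 arrays alone (0.0527) and without DS56 replicate 1 or 3 or control replicate 3 (0.0544 to 0.113).

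Of 19 glycolysis and gluconeogenesis rows 5 fell and 3 rose, with a median of -0.02 (log2). YGR254W (ENO1, enolase) had 7.14, 7.17 and 7.04 in DS56, against 8.00, 8.39 and 8.23 in the control, and fell by 1.09 ± 0.13 on the log2 scale (SE, limma's adjusted p = 5.74e-06). ENO1 averaged 7.86 in G12-CBS at 72 h and 7.31 at 24 h. YKL152C (GPM1, phosphoglycerate mutase) fell by 0.70 and YBR196C (PGI1, phosphoglucose isomerase) by 0.65 on the log2 scale. The other falls were YJR009C (TDH2, glyceraldehyde-3-phosphate dehydrogenase), with 11.51 on all DS56 arrays against 12.16 on all control arrays, and YCR012W (PGK1, phosphoglycerate kinase), which fell by 0.60. TDH2 and PGK1 lie outside the rule for named rows and were chosen after their values were seen. Of the 6 bright rows of the list 4 fell and none rose, and this count of 5 falls over all rows was the same under every alternative run. The rises were smaller and were lost without some arrays: YMR303C (ADH2) at 0.54, YOL086C (ADH1), also an alcohol dehydrogenase, at 0.47, and YMR205C (PFK2, a phosphofructokinase subunit) at 0.38 (log2). Leaving out DS56 replicate 2 or control replicate 3 took each of them above the threshold of 0.05, to limma's adjusted p values between 0.0521 and 0.148, and leaving out DS56 replicate 1 took ADH1 to 0.0906 and PFK2 to 0.168.

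Of 7 rows for formaldehyde oxidation and peroxide removal, 5 of them bright, 2 rose and 2 fell. YDL168W (SFA1, the glutathione-dependent formaldehyde dehydrogenase) rose by 0.46 ± 0.12 (log2, SE, limma's adjusted p = 0.0118). It had 6.71, 6.68 and 6.68 in DS56, against 6.08, 6.27 and 6.36 in the control, close to the median of all values. YDR353W (TRR1, thioredoxin reductase) had 7.59, 7.66 and 7.66 in DS56, against 8.16, 8.23 and 8.19 in the control, and fell by 0.56 on the log2 scale. G12-CBS averaged 8.72 at 72 h and 7.74 at 24 h. YGR088W (CTT1, a catalase) at 0.43 and YML028W (TSA1, a peroxiredoxin) at -0.50 passed on all arrays but not when the spread was taken from the 6 arrays alone, with limma's adjusted p of 0.082 and 0.055. CTT1 also missed the threshold without DS56 replicate 1 or 2 or control replicate 1 or 2, with adjusted p up to 0.221, and TSA1 without DS56 replicate 1 or 3 or control replicate 2 or 3, with adjusted p up to 0.133.

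In the respiratory chain and ATP synthase list 5 of 19 rows rose and 2 fell. The rises were 3 with arrays centred, with the spread from the 6 arrays, or without DS56 replicate 1 or 2 or control replicate 3, and no row fell without DS56 replicate 2 or 3 or control replicate 1. The rises were led by the catalytic head of ATP synthase: YBL099W (ATP1, the alpha subunit) had 11.85, 11.99 and 11.90 in DS56, against 11.21, 11.08 and 10.85 in the control, and rose by 0.86 ± 0.15 (log2, SE, limma's adjusted p = 0.000391). YJR121W (ATP2, the beta subunit) had 13.26, 13.69 and 13.41 in DS56, against 12.86, 12.73 and 12.73 in the control, and rose by 0.68 ± 0.12 (log2, SE, limma's adjusted p = 0.000845). YIL111W (COX5B, a cytochrome c oxidase subunit) rose by 0.64 (log2), and none of these 3 overlapped between the strains. ATP1 averaged 11.00 in G12-CBS at 72 h and 11.46 at 24 h, and ATP2 12.52 and 13.23. The falls were YDR322C-A (TIM11, ATP synthase subunit e) at -0.47 and YKL016C (ATP7, a stator subunit) at -0.41 (log2), while ATP3, ATP5 and ATP14, also ATP synthase subunits, had 0.18, 0.32 and 0.16 and did not pass. TIM11 had adjusted p values of 0.0557 to 0.101 without any 1 DS56 array and 0.056 without control replicate 1, and ATP7 of 0.0503 to 0.134 without DS56 replicate 2 or 3 or control replicate 1 or 2. Of 7 tricarboxylic acid cycle rows YNL037C (IDH1, isocitrate dehydrogenase) rose by 0.53 and YLR304C (ACO1, aconitase) fell by 0.39 on the log2 scale, the call for ACO1 being lost without any 1 array other than DS56 replicate 2 (limma's adjusted p up to 0.178).

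Of 23 chaperone and protein folding rows 3 rose, 1 fell and 19 did not pass, 17.4% of the list called. Without control replicate 2 the rises were 5, without control replicate 1 the falls were 3, and no row fell without DS56 replicate 1 or 2 or control replicate 2 or 3. The list, and its count of rises, includes YLL039C (UBI4), which encodes polyubiquitin and not a chaperone. UBI4 had 8.72, 8.91 and 8.63 in DS56, against 7.81, 7.28 and 8.25 in the control, and rose by 0.97 ± 0.20 (log2, SE, limma's adjusted p = 0.00269). YNL007C (SIS1, a cytosolic Hsp40) had 10.34, 10.29 and 10.34 in DS56, against 9.53, 9.47 and 9.37 in the control, and rose by 0.86 ± 0.13 (log2, SE, limma's adjusted p = 7.78e-05). UBI4 averaged 7.85 in G12-CBS at 72 h and 8.62 at 24 h, and SIS1 9.82 and 11.34. YJR045C (SSC1, the mitochondrial Hsp70) rose by 0.60 (log2), and YPL240C (HSP82, an Hsp90) at -0.40 lost its call without DS56 replicate 1 or 2 or control replicate 2 or 3 (limma's adjusted p up to 0.121). YJL034W (KAR2, the Hsp70 of the endoplasmic reticulum) averaged 8.21 ± 0.10 in DS56 and 8.23 ± 0.30 in the control (SD, n = 3 each) and did not pass; it was chosen after its values were seen.

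Of 7 cytoskeleton and proton pump rows 4 rose and none fell, with all 7 positive and a median of 0.40 (log2), and 2 rose once arrays were centred, as without DS56 replicate 1 or 2 or control replicate 1 or 3. Here 4 of the 7 rows are bright. The list joins unlike genes and was chosen with earlier results of these data known, so its all-positive count is not a test. Beside VMA3, YFL037W (TUB2, beta-tubulin) had 8.49, 8.50 and 8.36 in DS56, against 7.97, 8.10 and 7.86 in the control, and rose by 0.47 ± 0.12 (log2, SE, limma's adjusted p = 0.01). TUB2 averaged 7.52 in G12-CBS at 72 h and 8.16 at 24 h. Its G12-CBS difference from the control at 72 h was -0.46 (log2, limma's adjusted p = 0.0196). YPL036W (PMA2, a plasma membrane proton pump) at 0.44 did not pass with arrays centred (limma's adjusted p = 0.0793), nor without DS56 replicate 1 or 2 or control replicate 1 or 3 (up to 0.19).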

How the data were processed

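Total RNA from 12 cultures was measured on 12 one-colour Cy3 NimbleGen arrays, and the deposited table holds log2 values, made with RMA per the submitters' processing notes. No source used here gives its version, the background correction, detection flags, slides or scan dates. Precision is limited by having 3 arrays a group. The 2390 rows were used as deposited, fewer than the 5777 genes per array given in the series design text. How they were chosen is not known here, and all shares and list counts are over these rows. In limma 3.58.1 (R 4.3.3, lmFit and eBayes) 1 model of 4 group means over 12 arrays was fitted, with DS56 minus control as the contrast and Benjamini-Hochberg adjustment over 2390 rows at 0.05, two-sided. SD is over the 3 arrays of a group.

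All 2390 row names occur in the S. cerevisiae gene table of GenomicFeatures 1.54.1 and 0 among 5040 K. phaffii genes of RefSeq. Neither table holds S. cerevisiae symbols. The design fixed for this work allowed a symbol only where a source pairs it with the row, and that condition was not met: symbols, roles and lists were assigned from general knowledge of S. cerevisiae nomenclature. Checks were limited to the occurrence of all 358 listed names in that table and to coding lengths within 10% in 59 of 59 ribosomal duplicate pairs, which do not test the names themselves. Members and lists were chosen with earlier results of these data known. Named rows are SAM2 and SAM1, the 10 largest rises and falls of bright rows and the 4 of dimmer rows among called rows whose arrays do not overlap, and the 3 largest called rises and falls of each list.

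The model was tested on simulated data from a single run, in which 200 of 2390 rows were changed. Noise was drawn for each row on its own from its SD in each group, and the shared order of the bright levels was not kept. The shares below therefore need not hold for the calls in the real data. For DS56 against the control it recovered 68.7% of changes of 0.5, 95.5% of changes of 1 and 100% of changes of 2 (log2), but 27 of 203 calls were false (13.3%), above the nominal rate. With the spread from the 6 arrays, 11 of 170 calls were false (6.47%) and 50.7% of changes of 0.5 were recovered. Alternatives were a replicate block, the 6 arrays alone, centring, quantile normalization, dropping the dimmest 25% of rows, eBayes with trend and robust set, and omission of each array in turn. Plots were made in matplotlib 3.10.9.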

Additional observations from a re-analysis of the deposited data

How the results depend on the processing

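The 433 calls became 395 with a replicate block, 301 with the spread from the 6 arrays compared, 396 with arrays centred, 426 after quantile normalization, 349 without the dimmest 25% of rows and 421 with a variance trend and robust moderation. Leaving out 1 array gave 239 to 390 calls over all rows, with 253, 239 and 246 without DS56 replicate 1, 2 and 3, and 68 to 77 calls among bright rows, against 88. Rises made up 66.5% of calls on the deposited scale, 53.5% with arrays centred and 55.2% after quantile normalization. Same-numbered DS56 and control cultures had deviations correlated at 0.06, 0.04 and 0.01, and differently numbered ones at -0.07 to 0.03, so cultures were treated as unpaired and the numbers as names only. A block of complete sets leaves each difference as it is (SAM2 at 5.29 and SAM1 at 1.69, log2) and changes only its error: it ended the calls of HEF3 (limma's adjusted p = 0.0527), CTT1 (0.0528) and PMA2 (0.059) and of no other named row. SAM2 ran from 5.14 to 5.43 and SAM1 from 1.52 to 1.91 (log2) without 1 array. Of 812 alternative values of 68 named rows none changed direction and 76, in 14 rows, no longer passed. None of these settings tests the row names, the probe matches, the signal over background or the ceiling at 15.76.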
